A study of Mus musculus with 43 samples.

Results

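Retinas of SCFA-treated males were compared with retinas of SCFA-treated females at 14 days post-laser (dpl), using the 3 male and 3 female libraries of this treatment and day whose counts stand together among the first 31 data columns of the deposited table. These are 6 of the 43 libraries of the series. The titles give sex, treatment and day, while the treatment field of the labels reads control for SCFA libraries too and the genotype field counts up from Bl6 over the libraries, so that treatment rests on the titles and strain on the methods. Both groups were C57BL/6J mice that drank SCFA (67.5 mM sodium acetate, 25 mM sodium butyrate and 40 mM sodium propionate, as the methods state in mM) from 3 weeks before the laser lesion until collection. The lesion was set at 9 weeks of age and is carried by every group of the series, the controls drawn on below included. The g/L values that the methods give beside the mM values of butyrate and propionate do not match them, which leaves the doses of these salts uncertain. Each library was a pool of 2 retinas from different mice of its group, so that n = 3 counts pools and not animals, and no littermate, cage or collection day is stated for any pool. Because reads were counted per retina pool, fewer cells of a type and less RNA per cell cannot be told apart. The question was how large the difference between the sexes was under treatment, over genes of chromosomes 1 to 19.

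In the laser model, burns through the pigment epithelium open the way for choroidal vessels to grow towards the retina, with microglia and Müller glia responding around the lesion. The neural retina holds rods and cones, whose signals pass through bipolar cells to ganglion cells, with horizontal and amacrine cells as the inhibitory interneurons of its synaptic layers. Acetate, propionate and butyrate are products of bacterial fermentation in the gut. They can act through receptors on the cell surface, as fuel, and, for butyrate above all, by inhibition of histone deacetylases.

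The 6 libraries held between 17207841 and 21507527 counts, and X- and Y-linked reads went with the label in 6 of 6. Over the series they did so in 42 of 43, the exception being a female control library of 7 dpl. Of the markers of retinal neurons, all 24 rod, 13 cone and 19 bipolar cell genes on autosomes had enough counts to be tested, as fits a retina, and mRNA of the mitochondrial genome took between 4.86% and 7.91%. The highest mitochondrial shares were those of male replicate 1 (7.91%) and female replicate 1 (7.12%), and these libraries also stood apart from the others over all genes. Lists of lens, surface epithelium, muscle and blood cell genes stood for other tissue, though retinal cells use some members. In that order their sums lay between 52.6 and 151, 315 and 413, 14.7 and 22.9, and 40.7 and 95.3 CPM per library. CPM of single genes is the usual depth-scaled count with TMM library sizes, while sums over a list were scaled by total counts without TMM. On the scale of total counts, 3 counts corresponded to between 0.139 and 0.174 CPM. The surface epithelium sum came mostly from *Pax6*, which retinal neurons use, and *Krt18*, and 13 of the 19 genes of that list, *Krt5*, *Krt12* and *Krt14* among them, were too low to be tested.

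Distances between the sexes overlapped those between replicates of the same sex. The distance between 2 libraries was taken as the median absolute log2 difference over autosomal genes. It was 0.104, 0.236 and 0.245 between the 3 pairs of female libraries and 0.181, 0.199 and 0.273 between the 3 pairs of male libraries. The 9 pairs of a male with a female library ran from 0.153 to 0.275, with a median of 0.2403 against 0.2175 for the 6 pairs within a sex, and this difference was not tested. In both sexes the closest pair was that of replicates 2 and 3, and the 4 distances between males and females among these replicates (0.153 to 0.182) all lay above the female pair and about the male pair. No 2 libraries differed by sampling noise alone, since the chi-square per gene of a pair was at least 3.48 where such noise gives a value near 1. This value cannot tell whether 2 libraries were prepared separately from shared material.

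**Figure D1:**
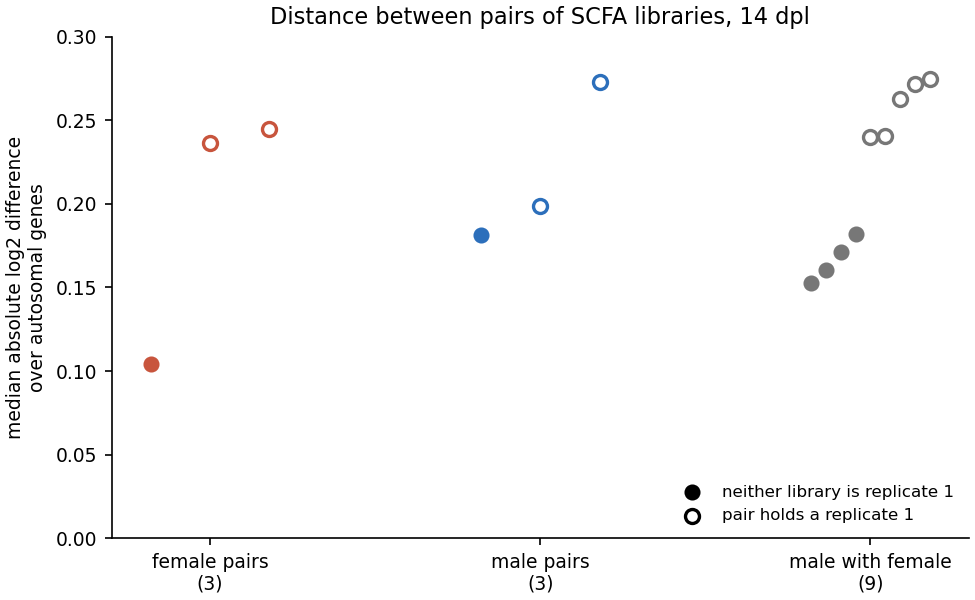
Median absolute log2 difference over autosomal genes for each pair of SCFA libraries at 14 dpl, by kind of pair; open points are pairs that hold a replicate 1. The male-female pairs (0.153 to 0.275) span about the same range as the pairs within a sex (0.104 to 0.273), and every pair above 0.19 holds a replicate 1.

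Gene by gene, no autosomal gene passed the test. For a call, a gene needed both an adjusted p below 0.1 and a log2 fold change beyond ±1, and 0 of 15797 autosomal genes were called by edgeR's quasi-likelihood test (0% called). The smallest adjusted p was 0.111, and 1219 genes (7.72%) had an unadjusted p under 0.05, with males higher in 788 (4.99%) and lower in 431 (2.73%). The balance of these directions moved with the processing and the libraries. It was 641 higher and 601 lower when autosomal genes alone were fitted, 713 and 575 with an offset for GC content, 770 and 749 without female replicate 1, and 437 and 489 without male replicate 1. DESeq2 called 3 of the 14771 autosomal genes to which it gave an adjusted p (0.0203%), namely *Ccdc150*, *Olig3* and *Ecel1*. On chromosomes X and Y, 6 of the 535 genes tested were called.

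The fold changes themselves were small. The median absolute log2 fold change of autosomal genes was 0.135, the 90th percentile was 0.437, and the 99th percentile was 0.936. An absolute log2 fold change over 0.5 was reached by 1173 genes (7.43%), and one over 1 by 120 genes (0.76%), 82 of them higher and 38 lower in males. Of these 120 genes, 94.2% had a mean under 10 CPM. The 95% interval of the log2 fold change lay within ±1 for 13070 genes (82.7%), and for 99.1% of the 9725 genes with a mean of at least 10 CPM. Within ±0.5 lay the intervals of 7930 genes (50.2%), so that smaller differences could not be bounded for the other autosomal genes. These p-values and intervals measure the spread between 3 pools per sex.

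**Figure D2:**
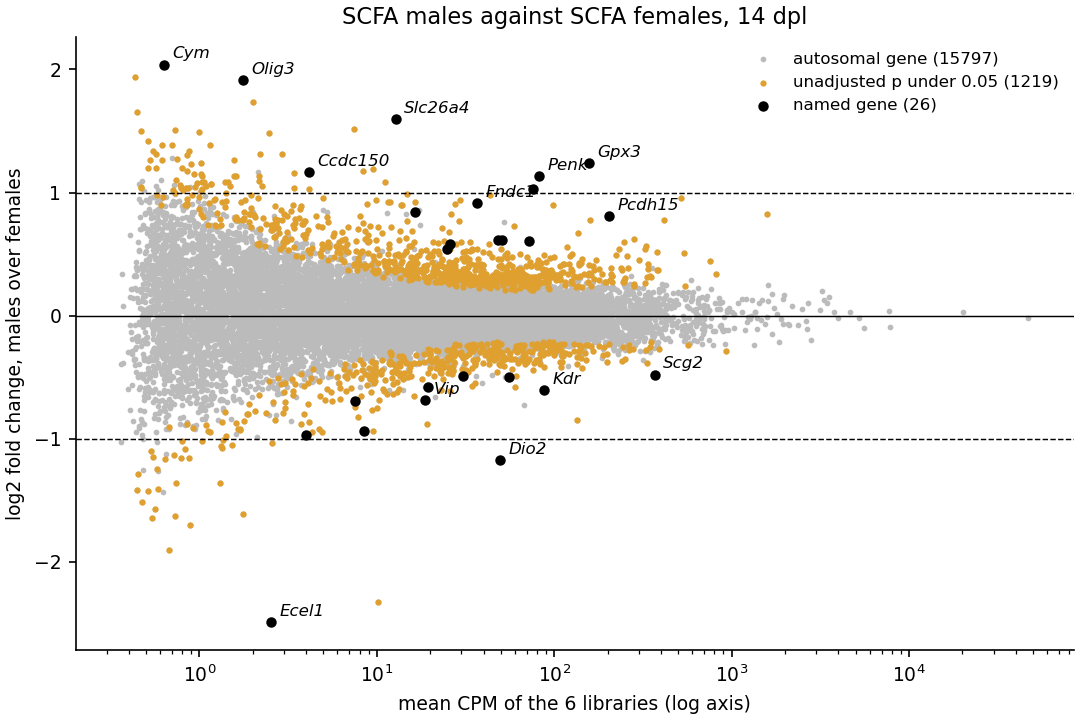
Log2 fold change of males over females against the mean CPM of the 6 libraries (log axis) for 15797 autosomal genes; orange points have an unadjusted p under 0.05, black points are the 26 genes named by rule, and dashed lines mark a log2 fold change of 1 in either direction. Folds over 1 lie almost entirely below 10 CPM, and 7 genes above that level exceed it.

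As none was called, the genes described next are those that follow in order of p among genes with an established name whose groups did not overlap, 10 in each direction, and none of them passed the test by edgeR. DESeq2 gave 18 of these 20 genes an adjusted p under 0.1, and 2 of the 18 also reached the fold change of a call. Over the 14771 autosomal genes to which it gave an adjusted p, 35 were under 0.1 at any fold change. The 20 genes were chosen by p on the same 6 libraries, so the values of DESeq2 are no independent support. Groups failed to overlap with males above for 8.49% of autosomal genes and with males below for 6.32%.

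*Pcdh15* encodes a protocadherin of photoreceptors that also joins the stereocilia of hair cells to each other. The gene lies at chr10:73099342-74649737 (plus strand, GRCm38). It had the smallest p of all autosomal genes. Its level was 281, 220 and 279 CPM in the males and 140, 166 and 141 CPM in the females. The lowest male lay above the highest female, and the log2 fold change was 0.81 ± 0.13 (SE; adjusted p by edgeR = 0.111). DESeq2 gave it an adjusted p of 6.49e-06, at a log2 fold change below the one a call required. *Fndc1*, a fibronectin type III domain gene at chr17:7738569-7827302 (minus strand), stood at 58.8, 38.6 and 46.1 CPM in males and at 24.9, 26.5 and 24.8 CPM in females. The females lay close together and the males spread widely above them (log2 fold change 0.91 ± 0.15, adjusted p = 0.118). *Col9a1*, a chain of the collagen IX of vitreous and cartilage, came next at 63.6, 54.7 and 65.9 CPM in males and 42.1, 37.5 and 40.9 CPM in females (0.61 ± 0.11, adjusted p = 0.203).

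The other 7 genes on the higher side had log2 fold changes between 0.54 and 2.04. *Ccdc150*, a coiled-coil gene, was at 6.44, 4.71 and 6.00 CPM in males against 2.47, 2.81 and 2.34 CPM in females (1.17 ± 0.21), and was one of the 3 genes that DESeq2 called. *Miat*, a long noncoding RNA of neuronal nuclei, had a log2 fold change of 0.84 ± 0.16. *Dnah9* and *Dnah7b*, heavy chains of axonemal dynein, had 0.58 ± 0.12 and 0.62 ± 0.14, where reads of *Dnah7b* may be shared with its near copies. *Mafg*, a small Maf transcription factor, had 0.61 ± 0.13 and overlaps *Sirt7* on the same strand, and *Radil*, a Rap effector in cell adhesion, had 0.54 ± 0.12. *Cym*, the milk-clotting protease chymosin, had the largest of these values at 2.04 ± 0.47, on levels between 0.181 and 1.23 CPM that reach down almost to 3 counts.

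*Vip*, the neuropeptide of a subset of amacrine cells, led the genes that were lower in males and lies at chr10:5639218-5647617 (plus strand). Its level was 13.2, 15.7 and 14.1 CPM in males and 26.4, 21.5 and 21.2 CPM in females. Every male lay below every female, and the log2 fold change was -0.69 ± 0.14 (adjusted p = 0.373). *Scg2*, at chr1:79434669-79440120 (minus strand), encodes secretogranin II of dense-core vesicles, in which neuropeptides are stored. It was at 285, 337 and 300 CPM in males and at 441, 435 and 408 CPM in females (-0.48 ± 0.11, adjusted p = 0.543). *Kdr*, the main VEGF receptor of endothelium, which retinal neurons and progenitors can also express, was at 62.1, 71.2 and 75.8 CPM in males and at 90.1, 114 and 114 CPM in females (-0.61 ± 0.12, adjusted p = 0.399).

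*Ecel1*, a metallopeptidase that neurons raise after injury, had the widest fold of the lower genes. It was at 0.468, 1.19 and 0.643 CPM in males against 1.61, 7.35 and 4.03 CPM in females, and its log2 fold change was -2.49 ± 0.54. The females spread widely, and DESeq2 but not edgeR called the gene (edgeR adjusted p = 0.505). *Gabrb1*, a GABA-A receptor subunit, had -0.69 ± 0.15, and *Nab2*, a corepressor of Egr transcription factors, had -0.58 ± 0.13. *Nab2* overlaps *Nemp1* and *Stat6* on the opposite strand and *Gabrb1* overlaps *Gabra4*, and the strand setting of the counting is not given in the sources used here. *Radil* likewise overlaps *Papolb*. *Car3*, a carbonic anhydrase, had -0.97 ± 0.21, and *Col8a1*, a short-chain collagen of basement membranes, had -0.93 ± 0.21. *Atrnl1*, which encodes an attractin-like membrane protein, had -0.50 ± 0.10, and *Rnf152*, a lysosomal ubiquitin ligase, had -0.49 ± 0.10 with its 3 males between 25.5 and 25.7 CPM.

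**Figure D3:**
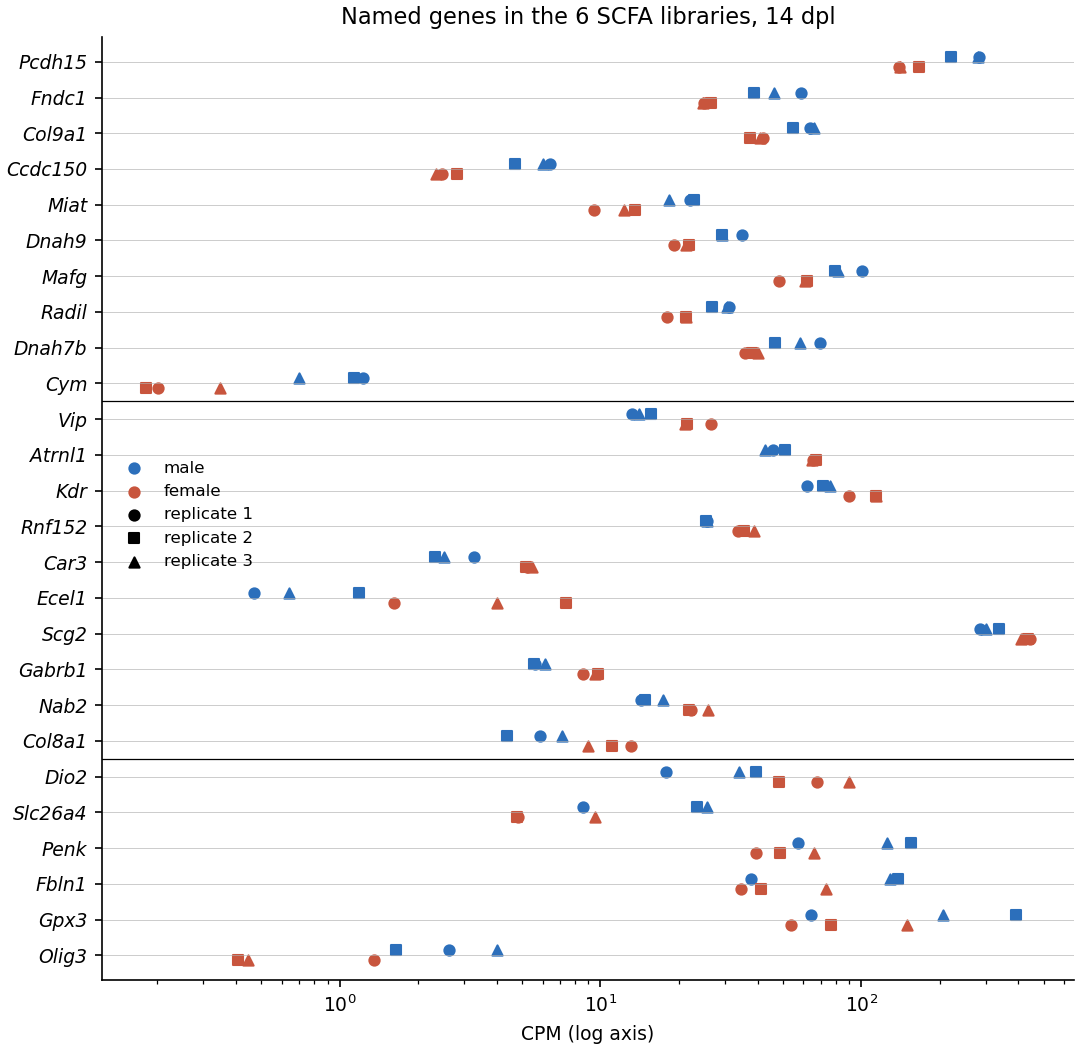
CPM (log axis) of the 26 named genes in each of the 6 libraries, males in blue and females in red, with a marker for each replicate number; lines separate the 10 genes higher in males, the 10 lower in males and 6 genes chosen after their values were seen. In the upper 20 genes the sexes do not overlap by the rule of choice, and among the last 6 male replicate 1 lies with the females for *Slc26a4*, *Penk*, *Fbln1* and *Gpx3*.

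Among genes with a mean of at least 10 CPM, 7 had an absolute log2 fold change over 1. Of these, 2 have no established name and the other 5 are described here, chosen after their values were seen. *Slc26a4* encodes the anion exchanger pendrin and lies at chr12:31519827-31559969 (minus strand). It was at 8.54, 23.5 and 25.6 CPM in males and at 4.84, 4.81 and 9.49 CPM in females, a log2 fold change of 1.59 ± 0.38. *Penk*, the precursor of the enkephalin peptides, was at 57.0, 156 and 126 CPM in males and at 39.6, 48.8 and 65.8 CPM in females (1.13 ± 0.30). In both genes male replicate 1 lay within the range of the females, and male replicates 2 and 3 stood above all of them.

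*Fbln1*, the matrix glycoprotein fibulin 1, and *Gpx3*, a secreted glutathione peroxidase, also had male replicate 1 within the range of the females. *Fbln1* was at 37.6, 139 and 129 CPM in males against 34.7, 41.2 and 73.4 CPM in females (1.03 ± 0.41). *Gpx3* was at 64.2, 392 and 205 CPM in males against 53.5, 76.8 and 150 CPM in females (1.24 ± 0.53). Without male replicate 1 edgeR called 4 autosomal genes, all higher in males, namely *Slc26a4* (log2 fold change 1.92), *Penk* (1.43), *Vcan* (1.27) and *Best2* (1.93). Without replicate 1 of both sexes it called 13 genes, 11 higher and 2 lower in males. The mitochondrial share of male replicate 1 was the highest of the 6, and its part in these differences was not tested.

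*Olig3*, a bHLH transcription factor, was called by DESeq2 and was named for that after its values were seen. It was at 2.63, 1.65 and 4.02 CPM in males and at 1.36, 0.408 and 0.447 CPM in females. The groups did not overlap, and edgeR gave a log2 fold change of 1.91 ± 0.49 (adjusted p = 0.543).

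The gene lists are described by their members, with the members of highest CPM named first and those with an unadjusted p under 0.05 named after their values were seen. None of their members was called. Most of the 44 lists had a negative median log2 fold change, so that a lean to lower values in males was not particular to the lists described with one. Over all autosomal genes the median log2 fold change was 0.01. The shares with an unadjusted p under 0.05 given above (4.99% higher and 2.73% lower in males) are the background for counts from all 6 libraries. Fits with fewer libraries had other backgrounds. Lower in males at that p were 749 of 16177, 234 of 16157 and 315 of 16150 autosomal genes without female replicates 1, 2 and 3. The counts were 489 of 16252, 817 of 16244 and 299 of 16238 without male replicates 1, 2 and 3, and 827 of 15946 without both replicates 1.

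Genes of the inhibitory interneurons leaned lower in males. All 20 tested genes of the amacrine and horizontal cell list had a negative log2 fold change, with a median of -0.29, and 9 of them had an unadjusted p under 0.05, against 2.73% of all genes. *Gad1*, which makes GABA from glutamate, was at 169, 179 and 173 CPM in males and at 216, 232 and 228 CPM in females. The males lay close together and below all females, at a log2 fold change of -0.38 ± 0.10. *Calb2*, the calcium-binding protein calretinin, had the highest CPM of the list and a log2 fold change of -0.01 ± 0.16.

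Beside *Gad1*, the members with an unadjusted p under 0.05 included *Vip*, *Slc32a1*, *Gad2*, *Th*, *Prox1*, *Tfap2b* and *Tfap2c*. *Slc32a1* loads GABA and glycine into vesicles and *Gad2* is the second GABA-making enzyme. *Th*, the enzyme that limits dopamine synthesis, was at 2.05, 3.74 and 2.73 CPM in males against 4.18, 6.44 and 4.18 CPM in females (-0.80 ± 0.28). The 3 transcription factors are markers of amacrine or horizontal cells. Summed over the list, the males were at 1191, 1403 and 1229 CPM and the females at 1445, 1558 and 1527 CPM, without overlap. When each library was left out in turn, the median stayed between -0.31 and -0.25 and the count with an unadjusted p under 0.05 ran from 4 to 10, and without both replicates 1 it was 10 with a median of -0.29.

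Bipolar cell genes were less uniform. Of 19 tested, 13 were lower and 6 higher in males, with a median of -0.15. Those of highest CPM were *Gnao1* (-0.21 ± 0.11), the G protein of the ON bipolar cascade, and *Otx2* (0.02 ± 0.12), a transcription factor of photoreceptors and bipolar cells. The 5 with an unadjusted p under 0.05 were all lower in males, namely *Vsx1*, *Scgn*, *Tacr3*, *Cabp5* and *Pcp2*. *Vsx1*, a homeobox factor of cone bipolar cells, was at 16.1, 14.5 and 14.0 CPM in males and at 19.8, 21.3 and 22.6 CPM in females (-0.52 ± 0.12). *Scgn*, a calcium-binding protein of cone bipolar cells, had -0.49 ± 0.15.

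In the ribbon synapse and vesicle release list, 9 of 19 genes were higher and 10 lower in males, with a median of -0.05. *Cplx3*, a complexin of ribbon and amacrine synapses, was at 257, 295 and 319 CPM in males and at 365, 398 and 376 CPM in females. Its groups did not overlap (-0.39 ± 0.11). *Syt1*, the calcium sensor of release, *Sv2a* and *Rims1* were the other 3 genes with an unadjusted p under 0.05 on the lower side, while *Pcdh15* and *Unc13b* were those on the higher side. Among glutamate, GABA and glycine receptor subunits, 29 of 38 were lower in males, with a median of -0.17, and 3 of them, *Gabrb1* and *Gabrr1* included, had an unadjusted p under 0.05.

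Photoreceptor and ganglion cell genes centred near 0. The median log2 fold change was 0.02 over 24 rod genes and 0.02 over 13 cone genes, and no member of either list had an unadjusted p under 0.05. *Gnat1*, the rod transducin, had 0.03 ± 0.13 and *Opn1sw*, the short-wavelength cone opsin, had 0.05 ± 0.14. The rod list ranged from -0.13 to 0.20 and the cone list from -0.14 to 0.07. Ganglion cell genes had a median of 0.04 over 19 genes, none with an unadjusted p under 0.05, and *Nefl*, the light neurofilament chain of their axons, had 0.01 ± 0.13. The sign of the median turned under 6 of 18 alternatives for rods, 8 for cones and 4 for ganglion cells.

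**Figure D4:**
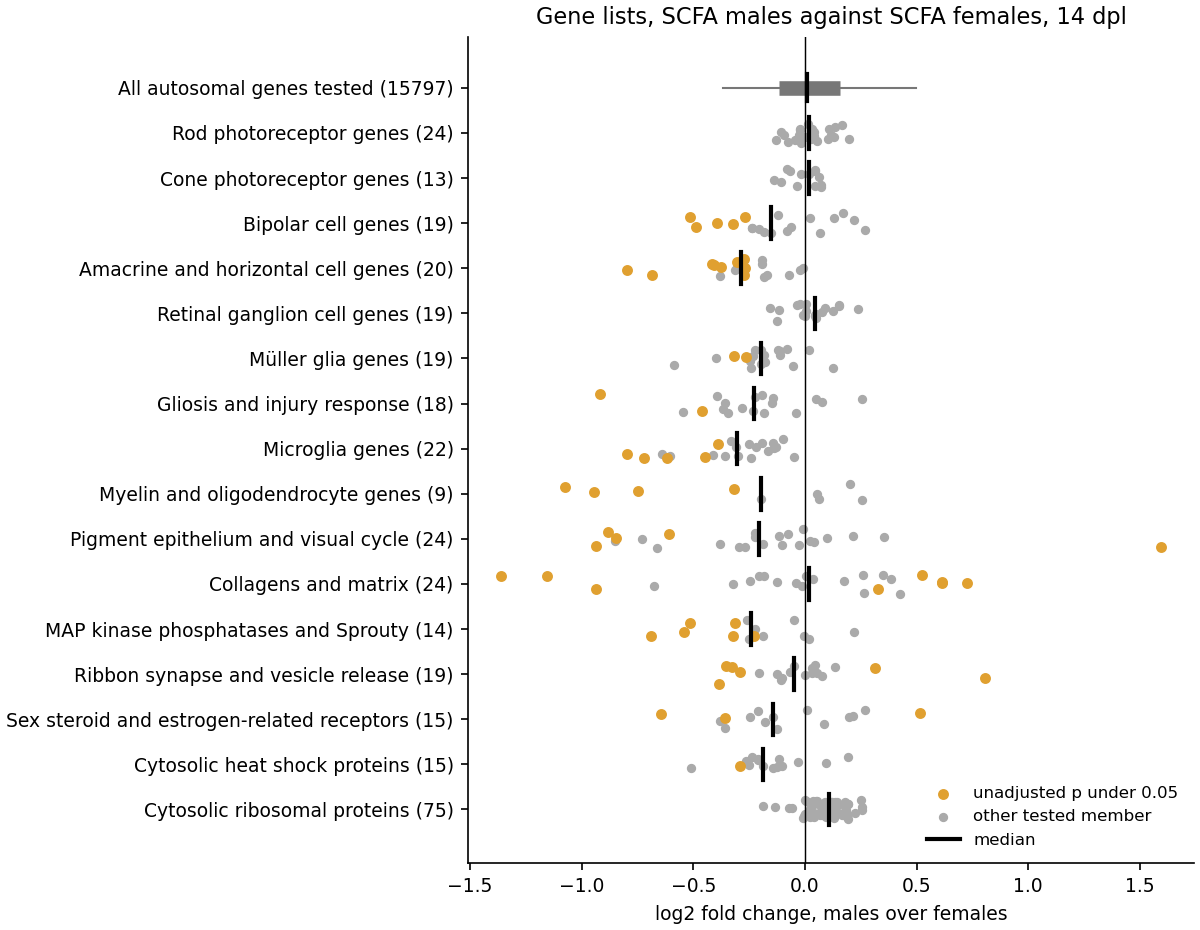
Log2 fold change of males over females for the tested members of 16 gene lists, with the median as a bar and members with an unadjusted p under 0.05 in orange; the top row gives all autosomal genes as the 5th to 95th percentile (line) and the quartiles (box). Rod, cone and ganglion cell genes centre on 0, amacrine and horizontal cell genes and microglia genes lie entirely below 0 with medians of -0.29 and -0.30, and collagens and matrix genes scatter to both sides.

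Glial and microglial genes also leaned lower in males. Müller glia genes were lower for 17 of 19 members, with a median of -0.20. *Glul*, the glutamine synthetase of these cells, had -0.20 ± 0.12, and *Apoe*, the lipid carrier, had 0.13 ± 0.17. *Slc1a3*, the glial glutamate transporter, and *Sox2* had an unadjusted p under 0.05. In the list of gliosis and injury response, 15 of 18 were lower with a median of -0.23. *Gfap*, the intermediate filament of reactive glia, was at 20.9, 48.4 and 26.5 CPM in males and at 40.2, 51.7 and 48.0 CPM in females. Male replicate 2 reached the range of the females (-0.55 ± 0.25).

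All 22 tested microglia genes had a negative log2 fold change, with a median of -0.30. *Ctss*, a lysosomal protease, was at 17.55, 22.92 and 17.58 CPM in males against 29.42, 26.67 and 22.97 CPM in females (-0.45 ± 0.15). *C1qb*, a chain of complement C1q, had -0.39 ± 0.16. *Ctss*, *C1qb*, *Cx3cr1*, *Tyrobp* and *Fcrls* had an unadjusted p under 0.05.

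The lower microglial level varied in size with the libraries fitted. The median of the list stayed between -0.41 and -0.20 when each library was left out in turn. Summed over the list, the males were at 98.7, 140 and 117 CPM and the females at 164, 157 and 134 CPM, so that the groups overlapped, with replicate 1 the lowest male and the highest female. Without replicate 1 of both sexes the median was -0.07, 17 of 22 genes were below 0, and 0 had an unadjusted p under 0.05. That count was also 0 without male replicate 3, 1 without male replicate 1, 2 without female replicate 1, 3 without female replicate 2 and 8 without male replicate 2. For genes of disease-associated microglia, 13 of 16 were lower, with a median of -0.23, which was -0.09 without both replicates 1 and -0.02 without female replicate 1. *Lyz2*, the lysozyme of macrophages, had -0.74 ± 0.25, and *Lpl*, a lipase, had -0.59 ± 0.17. Other lists moved as well when 1 library was left out, with counts of lower genes below that threshold from 0 to 6 for Müller glia, 1 to 6 for gliosis, 2 to 7 for bipolar cells and 2 to 9 for receptor subunits.

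Genes of the pigment epithelium and visual cycle were lower in males for 18 of 24 members, with a median of -0.21. *Ttr*, the carrier of thyroxine and retinol-binding protein, was at 113, 60.0 and 115 CPM in males and at 279, 157 and 82.8 CPM in females. *Rpe65*, the isomerase of the visual cycle, was at 16.6, 9.13 and 14.8 CPM in males and at 41.0, 20.8 and 13.1 CPM in females. In both genes female replicate 1 was by far the highest library and female replicate 3 lay among the males. *Rpe65*, *Ttr*, *Lrat* and *Stra6* had an unadjusted p under 0.05 on the lower side and *Slc26a4* on the higher side. Without female replicate 1 the median of the list was -0.07 and 0 of its genes had an unadjusted p under 0.05 on the lower side. That count was also 0 without male replicate 2, and it was 6 and 9 without female replicates 2 and 3.

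Of 19 autosomal myelin and oligodendrocyte genes, 9 could be tested, and *Mog*, *Mag* and *Olig2* were among those with too few counts. Of these 9, *Cnp*, *Ermn*, *Sox10* and *Myrf* had an unadjusted p under 0.05 on the lower side, and the summed level was between 55.0 and 64.7 CPM in males and between 70.9 and 75.1 CPM in females. *Mbp*, the basic protein of myelin, had -0.19 ± 0.13.

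Collagens and matrix genes differed in both directions. With 13 of 24 higher and 11 lower in males the median was 0.02, but 8 had an unadjusted p under 0.05. *Col18a1*, the collagen from which endostatin is cut, was at 39.8, 97.3 and 85.7 CPM in males and at 39.1, 37.8 and 57.8 CPM in females (0.73 ± 0.28). Male replicate 1 was again level with the females. *Col9a1*, *Col1a2*, *Col6a1* and *Col4a1* were also higher in males, and *Col3a1* (-1.36 ± 0.34), *Col5a2* and *Col8a1* were lower. *Sparc*, the matrix protein of highest CPM in the list, had -0.25 ± 0.13.

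Over 21 endothelial and pericyte genes the median was -0.01, and *Kdr* alone in that list had an unadjusted p under 0.05. Without male replicate 2 the median was -0.23 with 5 such genes, all lower in males, and without male replicate 3 it was 0.02. *Flt1*, the decoy-like VEGF receptor, had -0.12 ± 0.15. *Vegfa*, the ligand that drives vessel growth in the laser lesion, was at 117, 107 and 104 CPM in males and at 88.8, 103 and 100 CPM in females (0.17 ± 0.10, adjusted p = 0.704). *Pgf*, a ligand of *Flt1*, had 1.20 ± 0.38 and an unadjusted p under 0.05, on levels between 0.408 and 1.39 CPM.

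The feedback inhibitors of MAP kinase signalling leaned lower in males. Of 14 dual-specificity phosphatases and Sprouty and Spred genes, 12 had a negative log2 fold change, the median was -0.24, and 6 had an unadjusted p under 0.05, namely *Dusp4*, *Dusp6*, *Dusp16*, *Spry4*, *Spred1* and *Spred2*. *Dusp16* was at 19.2, 18.6 and 20.6 CPM in males and at 22.2, 28.9 and 32.2 CPM in females (-0.51 ± 0.14). The count was 2 without female replicate 3 or male replicate 1, 3 without female replicate 2 or male replicate 3, and 5 without either other library, with a median between -0.27 and -0.18. *Dusp8*, the member of highest CPM, had -0.22 ± 0.14. Immediate early genes, which the same kinases induce, had a median of -0.07 over 21 members, and *Fosl2* and *Atf3* were those with an unadjusted p under 0.05, both lower in males.

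Lists that bear on the treatment held few differences. Of 13 SCFA receptors and transporters, *Ffar2*, *Ffar3* and *Hcar2*, the receptors for these acids, had too few counts to be tested (3, 1 and 11 counts in all 6 libraries together). *Slc16a1*, the monocarboxylate transporter MCT1, had -0.08 ± 0.12, with a 95% interval from -0.34 to 0.17, and its chaperone *Bsg* had -0.05 ± 0.12. *Slc16a3*, the transporter MCT4, had 0.27 ± 0.12 and an unadjusted p under 0.05. Histone deacetylases had a median of 0.11 over 15 genes, with *Hdac5* at 0.16 ± 0.12, and genes of acetate, propionate and butyrate metabolism a median of -0.02 over 19.

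Among 15 sex steroid receptors, steroid enzymes and estrogen-related receptors the median was -0.14. An unadjusted p under 0.05 was reached by 1 gene higher and 2 lower in males, against 4.99% and 2.73% of all autosomal genes. Groups did not overlap for 1 gene with males above and 5 with males below, against 8.49% and 6.32%. *Esrrb*, an orphan receptor of rods, was at 385, 491 and 456 CPM in males and at 270, 309 and 353 CPM in females. The lowest male lay above the highest female (0.51 ± 0.13, unadjusted p = 0.00279). Its relative *Esrrg* was lower in males (-0.36 ± 0.10, unadjusted p = 0.00463), and so was *Esr1*, the estrogen receptor alpha (-0.64 ± 0.28), on levels between 1.40 and 3.12 CPM. *Esr2* and *Cyp19a1*, the aromatase, were too low to be tested.

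Housekeeping lists differed slightly. Of 75 cytosolic ribosomal protein genes, 67 had a positive log2 fold change, with a median of 0.11 and 0 with an unadjusted p under 0.05, and the direction turned without male replicate 1 (median -0.03). Without female replicate 1 the median was 0.27 and 39 of the 75 had an unadjusted p under 0.05, all higher in males. Over all autosomal genes of that fit, 770 of 16177 were higher in males at that p. Cytosolic heat shock proteins were lower in males for 13 of 15, with a median of -0.19, and *Hsp90aa1* had -0.21 ± 0.11. Nuclear subunits of oxidative phosphorylation had a median of 0.04 over 70 genes, none with an unadjusted p under 0.05.

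The difference between the sexes under SCFA was then set beside that in control mice at 14 dpl and that under SCFA at 7 dpl, in 1 joint model of the 43 libraries that carried the run of columns as a term. The run is the first 31 against the other 12 data columns of the table. Of the 3 female controls at 14 dpl, 2 stand in the second run, so that these controls differ from the treated libraries in run as well as in SCFA. The study's methods state fewer libraries, after quality assessment, than this fit used for female controls and SCFA females at 14 dpl. The same holds for SCFA males and SCFA females at 7 dpl. The female control of 7 dpl whose X- and Y-linked reads went against its label was part of the fit but of none of the groups compared. A further female SCFA library of 14 dpl from the second run also entered this fit. Over the 15797 genes of the 6-library test, the median absolute log2 fold change between the sexes was 0.124 under SCFA at 14 dpl, 0.232 in controls at 14 dpl and 0.142 under SCFA at 7 dpl. Calls numbered 0 under SCFA at 14 dpl, 65 in controls (0.411%) and 8 under SCFA at 7 dpl (0.0506%). The difference in size as a whole was not tested. The median standard error over the autosomal genes of the fit was 0.202 under SCFA and 0.227 in controls at 14 dpl, and 0.177 under SCFA at 7 dpl.

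Tested directly, the interaction of sex and SCFA at 14 dpl called 0 of 17555 autosomal genes (0%), and 1755 (10%) had an unadjusted p under 0.05. The smallest adjusted p was 0.485. The median standard error of the interaction was 0.297, wider than that of the sex difference under SCFA or in controls at 14 dpl. Small interactions could therefore go uncalled. Of the genes above, *Pcdh15* had a log2 fold change between the sexes of 0.68 under SCFA and of -0.07 in controls in this fit (interaction 0.75, unadjusted p = 0.0353, adjusted p = 0.488). *Vip* had -0.70 under SCFA and -0.01 in controls (interaction unadjusted p = 0.0365, adjusted p = 0.488), and *Scg2* -0.42 and 0.21 (unadjusted p = 0.0361, adjusted p = 0.488). *Pcdh15*, *Vip* and *Scg2* were chosen by p on the same SCFA libraries. A wider difference under SCFA than in controls can therefore follow from that choice alone. Interactions of other genes named in that way included 1.16 for *Ccdc150* and -0.06 for *Rnf152*, neither of them called. The 65 genes called in controls had a median under SCFA of 0.08 where they were higher in control males (20 genes) and of -0.17 where they were lower (45 genes). Under SCFA 14 of the 20 and 37 of the 45 kept their sign, and 1 of the 65 had an unadjusted p under 0.05. As these genes were chosen for their values in controls, smaller values under SCFA can follow from the choice alone.

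Against 7 dpl, 1 of 17555 autosomal genes was called for a sex difference that changed under SCFA (0.0057%), and 1506 (8.58%) had an unadjusted p under 0.05. The gene was *Dio2*, type 2 iodothyronine deiodinase, which turns thyroxine into the active thyroid hormone within a tissue and lies at chr12:90724552-90738438 (minus strand). In the 6-library fit at 14 dpl it was at 17.9, 39.4 and 33.9 CPM in males and at 67.7, 48.4 and 89.9 CPM in females. The highest male stayed below the lowest female, and the log2 fold change was -1.17 ± 0.27 (adjusted p = 0.543).

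Scaled over all 43 libraries, the SCFA males at 7 dpl were at 87.1, 56.9, 117, 33.6 and 64.0 CPM and the SCFA females of that day at 31.3, 36.6, 29.3 and 20.3 CPM. The order of the sexes was thus the opposite of that at 14 dpl, with 1 male library below 1 of the females. At 3 dpl the SCFA males lay between 14.9 and 16.4 CPM and the SCFA females between 31.6 and 57.9 CPM, without overlap and in the order of 14 dpl, which was not tested. At 14 dpl the further female library of the second run was at 26.2 CPM, within the range of the males. The log2 fold change was 1.35 at 7 dpl (adjusted p = 0.0243) and -1.04 at 14 dpl, and their difference was -2.39 ± 0.43 (adjusted p = 0.0522). The call was lost when the 4 SCFA groups were fitted alone without the run of columns (-2.23, adjusted p = 0.199) and in 9 of the 16 fits that left out 1 library (adjusted p from 0.0148 to 0.309 over the 16). These were the fits without female replicate 1 or 3 or male replicate 1 or 3 of 14 dpl, and without female replicate 1 or 3 or male replicate 1, 3 or 5 of 7 dpl. Control males at 14 dpl were between 67.2 and 80.3 CPM and control females between 36.1 and 130 CPM, and the interaction of sex and SCFA for *Dio2* was -0.56 (adjusted p = 0.692).

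The transcription of *Dio2* is known to respond to cyclic AMP and to have a cAMP response element, so its promoter is shown with that element in capitals. The 250 bases before the start that RefSeq gives the gene (chr12:90739039-90739288, minus strand, GRCm38.p6, in the direction of the gene) were searched for TGACGTCA, which reads the same on both strands.
Dio2 promoter: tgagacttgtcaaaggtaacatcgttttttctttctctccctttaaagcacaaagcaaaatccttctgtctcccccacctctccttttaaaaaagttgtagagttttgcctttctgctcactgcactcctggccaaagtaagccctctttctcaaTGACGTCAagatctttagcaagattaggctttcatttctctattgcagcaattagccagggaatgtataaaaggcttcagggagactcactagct
The element occurs once, 87 bases before that start, in a window that lies upstream of the gene in GENCODE too. In the same window it occurs in 478 of 27025 genes (1.77%), in 1 of the 9 lower and 0 of the 9 higher genes named above that RefSeq's table holds. A match of letters is a description of the window and no test of binding.

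**Figure D5:**
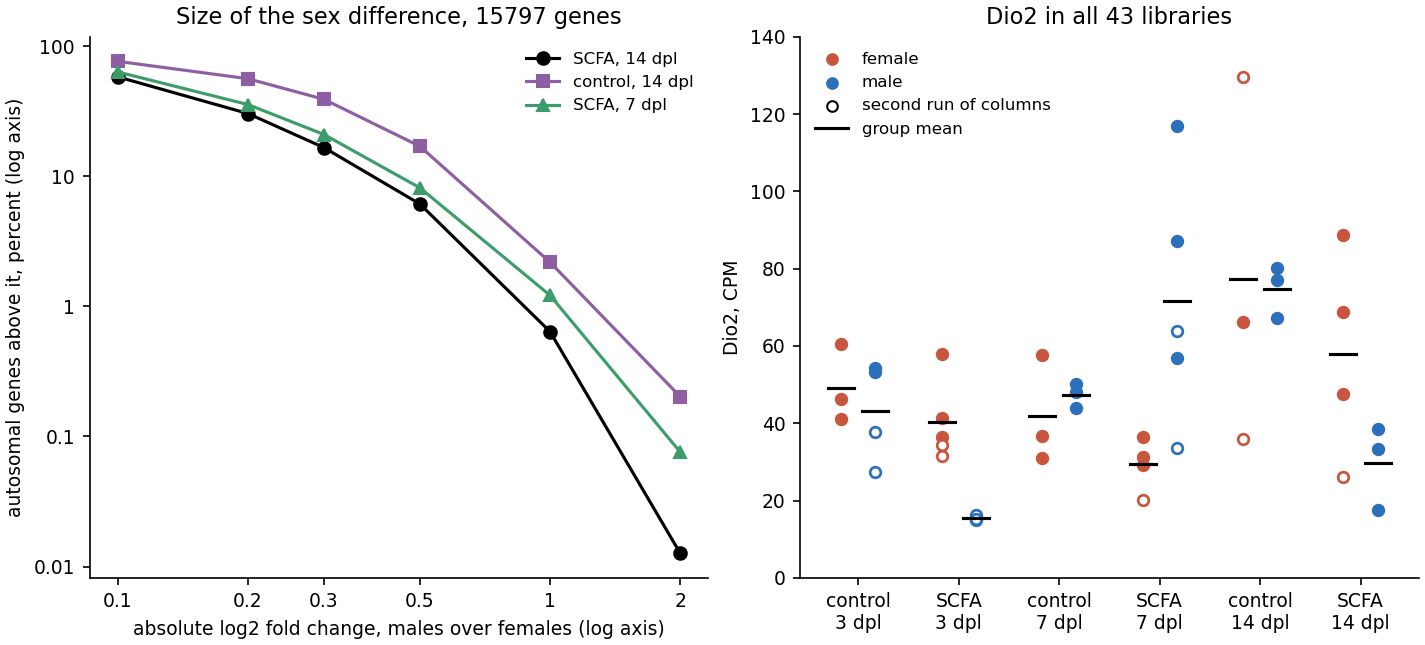
Left, the percent of 15797 autosomal genes (log axis) whose absolute log2 fold change of males over females exceeds each value on the x axis (log axis), in 1 fit of 43 libraries; right, CPM of *Dio2* in all 43 libraries by treatment and day, with bars at group means and open points for the second run of columns. The SCFA comparison at 14 dpl lies below those in controls at 14 dpl and under SCFA at 7 dpl at every threshold, with 0.639%, 2.18% and 1.22% of genes over 1. For *Dio2* the SCFA males lie above most SCFA females at 7 dpl and below the SCFA females of the first run at 14 dpl.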

How the data were processed

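RNA of retina pools was sequenced in paired reads of the 43 libraries. The authors deposited 1 table of raw read counts per gene (54532 genes), made on mm10 per the labels; aligner and strand setting are not given in the sources used here. No normalization had been applied. Groups came from the sample titles. Genes were placed with GENCODE M21 (GRCm38), and 37 identifiers had no match. The counts of the 6 libraries were filtered (filterByExpr), scaled by TMM and fitted with edgeR's quasi-likelihood test (edgeR 4.0.16, R 4.3.3), with Benjamini-Hochberg adjustment over all 16378 genes tested. DESeq2 1.42.0 was an alternative. Standard errors were derived from the F statistics. Scripts were tested on simulated data. Genes of chromosomes X and Y were counted and not described. Genes were named if called, or else as the 10 next in order of p in each direction with an established name and groups that did not overlap, along with list members, as stated beside them. The comparison and the 44 gene lists were chosen with earlier results of these data known. The same replicate number is not stated to mark shared animals, and deviations of same-numbered libraries correlated by 0.277, 0.119 and 0.0402. Those of differently numbered male and female libraries correlated by -0.234 to 0.191. Some list members are not reported here by name.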

Additional observations from a re-analysis of the deposited data

Results flagged for a closer look

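*Dio2* stood out because the difference between the sexes under SCFA itself differed between days. The log2 fold change of males over females was 1.35 at 7 dpl and -1.04 at 14 dpl, a difference of -2.39 ± 0.43 (edgeR, adjusted p = 0.0522), in the joint model of all libraries. It was the 1 autosomal gene called in that contrast. The value lay between -2.61 and -2.12 when each of the 16 libraries was left out in turn, and 7 of these 16 fits kept the call.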

How the results depend on the processing

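Against 0 autosomal genes called between SCFA males and females, DESeq2 called 3, edgeR without a filter on low counts 44, and edgeR with the further female library 1. Leaving out 1 library gave 0 to 4, namely 4 without male replicate 1, 3 without male replicate 2 (*Fndc1*, *Tgm4* and *Fabp4*), 1 without female replicate 1 (*Ecel1*) and 0 without the others. Without both replicates 1, an alternative chosen after seeing the data, the count was 13. A replicate block gave 11 calls, 8 higher and 3 lower in males, but the numbers share no stated source and 1 of the 3 correlations was below 0.1. The median absolute log2 fold change of 0.135 became 0.275 with DESeq2 and 0.270 without a filter, where more low genes were tested, and 0.135 to 0.176 when leaving out 1 library.

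The interaction of sex and SCFA, with 0 calls, had 2 with DESeq2, 69 without a filter, 281 with the replicate block and run of columns, and 0 in each of 13 fits leaving out 1 library. For 14 against 7 dpl, with 1 call, DESeq2 gave 31, no filter 166, the first run alone 6, the fit without the female control library that holds Y-linked reads 10, the groups alone without the run 0, and the replicate block with run 24. Leaving out 1 library gave 0 to 22. The causes were not tested.

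Of the genes with an unadjusted p under 0.05, 64.6% were higher in males, against 50.7% without female replicate 1, 47.2% without male replicate 1 and 48.6% without both. Over 465 values of the named genes under alternatives, 0 changed sign and 27 passed the threshold. Most of these genes were chosen for groups that did not overlap and the others for their fold or call. Their signs could therefore hardly change, and the count of 0 is no measure of robustness. Depth limits genes near 3 counts, and 3 pools per sex limit small differences.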
